A study of Bos taurus with 12 samples.

Results

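The genes described here are the ligands, receptors and binding proteins of the insulin-like growth factor (IGF) system in cattle embryos before implantation. The array's annotation gave exactly 1 of the 8 gene symbols for 17 of its 24016 probe sets, a probe set being the group of short probes that together read a transcript. IGF1 and IGF2 had 4 probe sets each, the receptors IGF1R and IGF2R had 2 each, IGFBP3 had 2, and IGFBP2, IGFBP4 and IGFBP5 had 1 each. A probe set is named here by the ending of its identifier, such as S1_at, where a gene has several. All 17 probe sets of these genes were taken whatever their signal, but the genes themselves were chosen with earlier results of these data known.

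IGF1 and IGF2 are secreted peptides related to insulin that act on cell growth and survival. They signal through IGF1R, a receptor tyrosine kinase that recruits adaptor proteins and starts the PI3K-AKT-mTOR and Ras-MAPK kinase cascades. IGF2R, the cation-independent mannose-6-phosphate receptor, has no kinase. It carries lysosomal enzymes and takes up IGF2 for degradation, and in mammals such as cattle and mice IGF2 and IGF2R are imprinted genes. The binding proteins hold IGFs outside the cell, which limits or prolongs their action. In cattle, IGFs in culture medium and in the reproductive tract are known to act on cleaving embryos and blastocysts.

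RNA came from pools of embryos of Japanese Black cattle made by in vitro maturation, fertilization and culture. Blastocysts were expanded, not yet hatched embryos of day 7, in pools of 10, from oocytes of prepubertal heifers aged 9 to 12 months or of adult cows. The 8-16-cell embryos were collected on day 3, at 70 to 72 hours after insemination, in pools of 50, from oocytes of the same donor classes. Each of these 4 groups had 3 arrays, 12 in all. All embryos shared the fertilization with thawed semen of the breed and the culture medium with serum from the third day, and only embryos of normal morphology were kept. The labels do not say whether pools shared ovaries, donors, a bull or a culture day, so p-values measure the spread between these pools, which may be partly technical. They give no age for the cows.

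The deposited signal of a probe set is an intensity on a linear scale, scaled by the authors to a like trimmed mean on every array. The background of an array was taken as the highest of its 27 probe sets for Bacillus subtilis genes, controls without a counterpart in the embryo, and a probe set was read as above background on an array where its signal exceeded that value. Background lay between 122 and 424 on 11 arrays and at 1664 on replicate 3 of the prepubertal 8-16-cell embryos. That array stood apart, with 1255 probe sets above background, which was 5.23% of all. Of the 24016 probe sets, 34.7% ± 0.780 were above background in prepubertal blastocysts, 26.8% ± 2.06 in adult blastocysts, 15.1% ± 8.83 in prepubertal 8-16-cell embryos and 26.8% ± 3.57 in adult 8-16-cell embryos (SD, n = 3 each). Most stage markers followed the labels. Several of them were chosen with earlier results of these data known, so this is not an independent check of the labels. The trophectoderm genes KRT18, KRT8 and LGALS3 were above background on all 6 blastocyst arrays, and KRT18 also on 1 prepubertal 8-16-cell array. IFNT2 was above it on 2 of 3 prepubertal and all 3 adult blastocyst arrays, and on 1 adult 8-16-cell array. All 4 trophectoderm markers were called higher in blastocysts over both origins, but IFNT2 was not called within either origin. Both probe sets of the oocyte gene BMP15 were below background on all 6 blastocyst arrays and above it on all 6 8-16-cell arrays. Of the 9 probe sets of the oocyte and early embryo list, 5 were called lower in blastocysts over both origins and 4 were not called, and NLRP5 was above background only once, on a prepubertal blastocyst array.

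The IGF system was largely unread on these arrays, with 1 exception, IGF2R. Of the 204 readings of the 17 probe sets on 12 arrays, 26 were above background, and 10 of those belonged to 1 IGF2R probe set. The members were above background in 10 of 51 readings in prepubertal blastocysts (19.6%), 9 of 51 in adult blastocysts (17.6%), 1 of 51 in prepubertal 8-16-cell embryos (1.96%) and 6 of 51 in adult 8-16-cell embryos (11.8%). Over all 13292 probe sets that name 1 gene, the same shares were 40.6%, 32.4%, 18.4% and 32.1%, so the members lay under the array's own share in every group. The groups stood in the same order in both sets of shares, and no difference in them was tested. In pooled embryos, fewer cells of a type and less RNA per cell cannot be told apart, and the pools of the stages differ in embryo and cell number, so every level is relative to the rest of the RNA on the array.

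**Figure D1:**
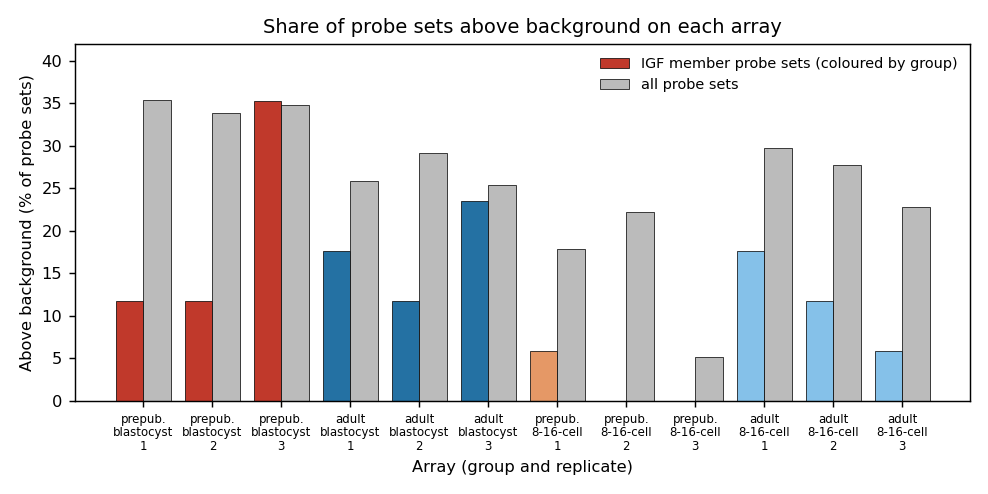
Share of probe sets above background on each of the 12 arrays (bars, % of probe sets), for the 17 IGF probe sets (coloured by group) and for all probe sets (grey). The IGF share was under the grey bar on 11 arrays, was 0 on 2 of the prepubertal 8-16-cell arrays, and came level with it on replicate 3 of the prepubertal blastocysts, where 6 of the 17 were above background.

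Apart from that IGF2R probe set, the remaining 16 gave 16 readings above background of 192 (8.33%), against 30.9% for all probe sets naming 1 gene. Their median signal was 61.5, against 123 for those probe sets. None of the 16 was above background on more than 2 arrays, and 5 were below it on all 12. The highest of their readings was 4.58 times the background, for IGFBP3 on replicate 1 of the adult blastocysts. By role, the ligands gave 4 readings above background of 96, the receptors without that probe set 5 of 36 and the binding proteins 7 of 60.

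**Figure D2:**
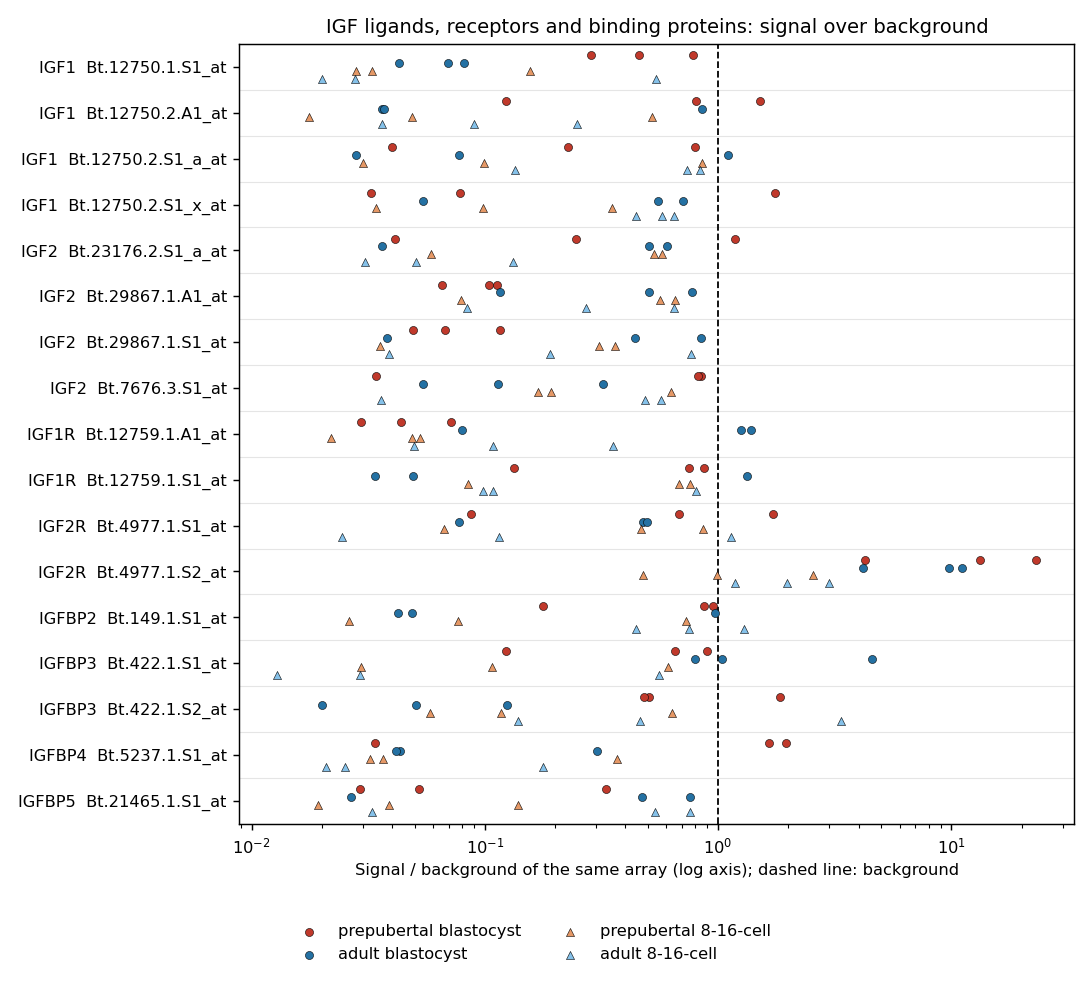
Signal of each of the 17 IGF probe sets divided by the background of the same array (horizontal log axis; dashed line at the background), 1 point per array, circles for blastocysts and triangles for 8-16-cell embryos. The probe set S2_at of IGF2R lies to the right of the line on 10 of 12 arrays and reaches 23.2 times the background; the others lie mostly to the left of it.

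The ligands come first. IGF1, the ligand that mediates much of the action of growth hormone after birth, had no probe set above background on more than 1 array. The probe set S1_at was below background on all 12 arrays, with signals of 48.9, 153 and 116 in prepubertal blastocysts, 13.0, 9.63 and 23.0 in adult blastocysts, 9.96, 13.9 and 261 in prepubertal 8-16-cell embryos and 3.39, 4.99 and 136 in adult 8-16-cell embryos. The other IGF1 probe sets each had a single array above background, and not the same one. The probe set A1_at read 383 on replicate 3 of the prepubertal blastocysts, 1.51 times the background. The probe set S1_a_at read 311 on replicate 3 of the adult blastocysts, 1.10 times. The probe set S1_x_at read 342 on replicate 2 of the prepubertal blastocysts, 1.75 times. A single reading of this kind on 1 of 3 pools gives no level for a group.

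IGF2, the ligand best known for growth of the embryo and placenta, was read above background once. Its probe set S1_a_at had 7.05, 48.0 and 300 in prepubertal blastocysts, where the last value was 1.18 times the background, and 94.7, 135 and 10.2 in adult blastocysts. In the 8-16-cell embryos it had 189, 244 and 97.7 in the prepubertal group and 6.19, 32.9 and 7.70 in the adult group, all below background. The values of the prepubertal 8-16-cell group lay above those of the adult group without overlap, a difference of 2.63 on the log2(signal + 16) scale (SE 1.22, limma adjusted p = 0.518) between signals that are all under background. The other 3 IGF2 probe sets, A1_at and both that end in S1_at, were below background on all 12 arrays, with highest signals of 278, 602 and 282. The 278, 602 and 282 were all on arrays of prepubertal 8-16-cell embryos, whose backgrounds were the highest of the series.

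Among the receptors, IGF1R, the signalling receptor, was above background in 3 readings, all in adult blastocysts. Its probe set A1_at had 5.06, 8.59 and 18.2 in prepubertal blastocysts, against 234, 17.9 and 391 in adult blastocysts. It had 17.3, 22.3 and 36.4 in prepubertal 8-16-cell embryos and 13.2, 12.3 and 89.2 in adult 8-16-cell embryos. The 234 and the 391 were 1.25 and 1.39 times the background and all other values were below it, so the group of adult blastocysts held both high and low pools. Between blastocysts of prepubertal and adult origin the difference was -2.54 (SE 1.04, unadjusted p = 0.0159, limma adjusted p = 0.9996), and it did not pass the test over all probe sets.

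The second IGF1R probe set, S1_at, did not follow the first. It had 23.0, 170 and 191 in prepubertal blastocysts and 6.34, 298 and 13.8 in adult blastocysts, of which only the 298 was above background, on the pool where the first probe set was low. It had 269, 35.8 and 1131 in prepubertal 8-16-cell embryos and 13.2, 24.4 and 202 in adult 8-16-cell embryos, all below background. The highest of these signals, 1131, was on the array with a background of 1664.

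IGF2R was the best read member. Its probe set S2_at had signals of 2267, 4532 and 1085 in prepubertal blastocysts and 2073, 2187 and 1172 in adult blastocysts, all above background. It had 909, 202 and 1644 in prepubertal 8-16-cell embryos, of which only the 909 was above background, and 366, 490 and 295 in adult 8-16-cell embryos, all above it. On the signal scale the stages overlapped only through replicate 3 of the prepubertal 8-16-cell embryos, whose 1644 lay just under its background. Within the adult origin every blastocyst pool was above every 8-16-cell pool.

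Set against the background of the same array, the probe set read 13.2, 23.2 and 4.27 times the background in prepubertal blastocysts and 11.1, 9.76 and 4.16 times in adult blastocysts. In prepubertal 8-16-cell embryos it read 2.55, 0.476 and 0.988 times, and in adult 8-16-cell embryos 3.00, 1.97 and 1.18 times. On this scale the 6 blastocyst arrays lay above the 6 8-16-cell arrays without overlap. The share of all probe sets that do so on this scale was not counted, so this separation does not set IGF2R apart. Division by background also moved the whole array towards blastocysts. The median blastocyst minus 8-16-cell difference of all probe sets went from -0.17 to 0.54 over both origins. In the prepubertal origin it went from -0.37 to 1.26. Within each array's own ranking of probe sets, IGF2R stood at percentiles 92.1, 95.3 and 88.5 in prepubertal blastocysts, 91.4, 91.7 and 88.9 in adult blastocysts, 89.0, 54.5 and 94.7 in prepubertal 8-16-cell embryos and 83.9, 81.2 and 80.1 in adult 8-16-cell embryos.

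**Figure D3:**
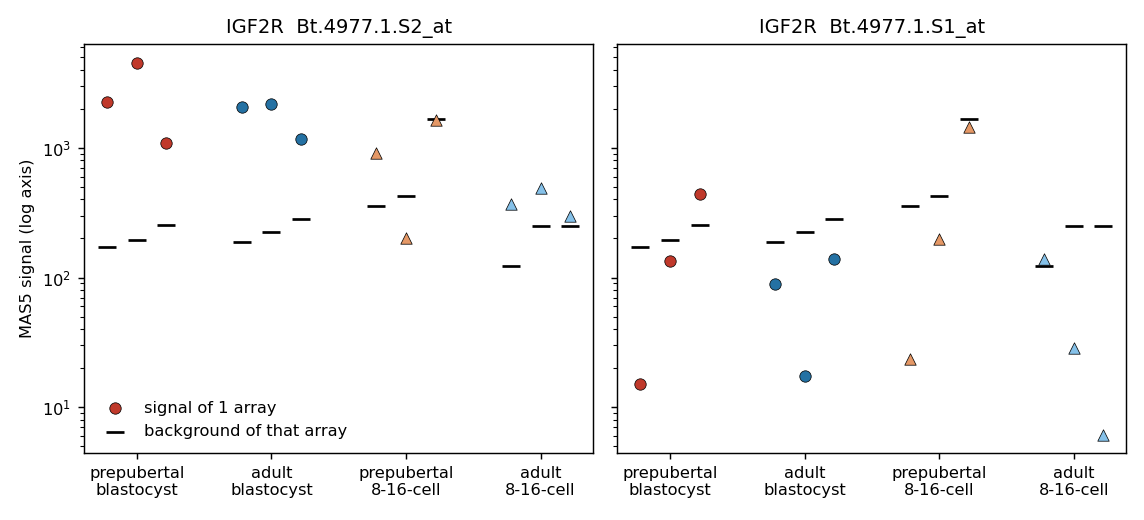
Signal of both IGF2R probe sets on each array (vertical log axis), with the background of that array as a black bar; circles are blastocysts and triangles 8-16-cell embryos, 3 arrays per group. In the left panel all 6 blastocyst signals are at least 4.16 times their background. Signals exceed background on 1 of 3 arrays of prepubertal 8-16-cell embryos, at 2.55 times. They do so on all 3 arrays of adult 8-16-cell embryos, at 1.18 to 3.00 times. In the right panel 2 of 12 signals exceed it.

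By mean log2(signal + 16), the order of the groups for this probe set was prepubertal blastocysts (11.14 ± 1.02), adult blastocysts (10.78 ± 0.49), prepubertal 8-16-cell embryos (9.44 ± 1.51) and adult 8-16-cell embryos (8.61 ± 0.35) (SD, n = 3 each). No pair of neighbours in that order differed beyond the spread. In limma's fit over all probe sets, blastocysts were higher than 8-16-cell embryos by 1.70 in the prepubertal origin (SE 1.42, adjusted p = 0.653) and by 2.17 in the adult origin (SE 1.42, adjusted p = 0.648). Averaged over both origins the difference was 1.93 (SE 1.001, 95% interval -0.04 to 3.91, unadjusted p = 0.0547, adjusted p = 0.315). IGF2R was therefore not called by limma at either origin or over both.

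As a single value, IGF2R was also compared between stages by an exact two-sided permutation test that exchanged arrays within each origin, with 400 arrangements and a smallest possible p of 0.005. The mean log2(signal + 16) was higher in blastocysts by 1.93, with exact p = 0.01, and by 2.25 with exact p = 0.01 when replicate 3 of the prepubertal 8-16-cell embryos was left out. The mean log2 of signal over background was higher by 2.68, with exact p = 0.005, the smallest this test can give. The percentile was higher by 10.8 points, with exact p = 0.03. Without that replicate the log2 ratio was higher by 2.66 and the percentile by 14.6 points, each with exact p = 0.01. These p-values are not adjusted for IGF2R having been singled out from 17 probe sets after its values were known. They are also not adjusted for the choice of measure or of the array left out. Division by background was chosen after seeing the data, and on that scale the median of all probe sets was itself higher in blastocysts by 0.54. How many probe sets of the array reach such exact p-values was not counted, so they do not set IGF2R apart. The array left out is the one through which the stages overlapped on the signal scale. Within an origin, 3 arrays against 3 cannot give an exact p under 0.1, and the values were 0.1 in the adult and 0.2 in the prepubertal origin for log2(signal + 16).

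Oocyte origin made no called difference to IGF2R. Prepubertal minus adult was 0.35 in blastocysts (SE 1.42, 95% interval -2.44 to 3.15, limma adjusted p = 0.9996) and 0.82 in 8-16-cell embryos (SE 1.42, 95% interval -1.97 to 3.62, adjusted p = 0.888). The second of these turned to -0.86 when each signal was divided by its array's background. The difference between the origin effects was -0.47 (SE 2.00, adjusted p = 0.993). Intervals of this width leave room for origin effects of several fold in both directions.

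The second IGF2R probe set, S1_at, did not show the same pattern. It had 15.0, 133 and 438 in prepubertal blastocysts, 89.6, 17.4 and 140 in adult blastocysts, 23.7, 198 and 1439 in prepubertal 8-16-cell embryos and 139, 28.4 and 6.14 in adult 8-16-cell embryos. Only the 438 and the 139 were above background, at 1.72 and 1.14 times. Its stage difference over both origins was -0.12 (SE 0.96, limma adjusted p = 0.976), against the 1.93 of the brighter probe set. The level of IGF2R described above therefore rests on 1 probe set.

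By Pearson correlation of log2(signal + 16) over the 12 arrays, among 3748 probe sets of other named genes above background on 6 or more arrays, those most like IGF2R were STEAP3 (r = 0.907), LAMB1 (r = 0.901) and CSRP2 (r = 0.893). STEAP3 is a metalloreductase of endosomal iron uptake, LAMB1 a laminin chain of basement membranes and CSRP2 a LIM-domain protein. The points share the stages, the arrays and the scaling, and the 3 were picked as the highest of many, so the values describe these arrays only.

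The binding proteins follow. IGFBP2, an abundant binding protein of fetal serum, was above background once, at 158 on replicate 1 of the adult 8-16-cell embryos, 1.30 times the background. Its other signals lay between 7.92 and 308. IGFBP5, a binding protein that also attaches to extracellular matrix, was below background on all 12 arrays, with signals of 5.72 to 188. IGFBP2 and IGFBP5 lie next to each other in the order of protein-coding genes of the RefSeq annotation of the ARS-UCD2.0 assembly, and neither was read in any group on more than 1 array.

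IGFBP4, a binding protein that the protease PAPPA cleaves, had 334, 6.63 and 422 in prepubertal blastocysts, against 8.12, 67.9 and 11.8 in adult blastocysts. The 334 and the 422 were 1.95 and 1.66 times the background, and the remaining pool of that group, at 6.63, was lower than the adult pools. It had 131, 13.6 and 60.7 in prepubertal 8-16-cell embryos and 2.54, 44.0 and 6.28 in adult 8-16-cell embryos, all below background. Prepubertal minus adult in blastocysts was 1.98 (SE 1.12, limma adjusted p = 0.9996), which was not called.

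IGFBP3, the main carrier of IGFs in serum after birth, had 2 probe sets that ran in opposite ways. S1_at had 154, 128 and 31.2 in prepubertal blastocysts, 857, 178 and 293 in adult blastocysts, 10.5, 257 and 178 in prepubertal 8-16-cell embryos and 68.1, 3.20 and 7.29 in adult 8-16-cell embryos. The 857 and the 293 were above background, and the 3 adult blastocyst pools lay above both the prepubertal blastocyst pools and the adult 8-16-cell pools. In the adult origin, blastocyst minus 8-16-cell was 3.48 (SE 1.34, unadjusted p = 0.0102, limma adjusted p = 0.194), the largest difference of any member in any comparison between 2 groups, and was not called.

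The S2_at probe set of IGFBP3 had 87.1, 94.4 and 468 in prepubertal blastocysts, 23.3, 4.50 and 14.2 in adult blastocysts, 20.8, 270 and 195 in prepubertal 8-16-cell embryos and 56.6, 832 and 34.9 in adult 8-16-cell embryos. Only the 468 and the 832 were above background. Here the adult blastocyst pools lay below the prepubertal blastocyst pools and below the adult 8-16-cell pools, and blastocyst minus 8-16-cell in the adult origin was -2.33 (SE 1.32, limma adjusted p = 0.541). With probe sets that point both ways, these data give no direction for IGFBP3.

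Across the 17 probe sets, limma called none in any comparison at an adjusted p under 0.05. Of all 24016 probe sets, blastocyst against 8-16-cell embryos called 2.34% in the prepubertal origin, 2.13% in the adult origin and 6.4% over both origins. Prepubertal against adult origin called 0% in blastocysts and 0.0208% in 8-16-cell embryos, and the difference between those effects called 0%. At these rates a list of 17 would hold few calls or none, so the absence of calls does not set the members apart. At an unadjusted p under 0.05 the members had 1 probe set in each of the comparisons between 2 groups, namely IGF2 A1_at (blastocyst minus 8-16-cell in the prepubertal origin, -2.58), IGFBP3 S1_at (the same in the adult origin), IGF1R A1_at (origin in blastocysts) and IGF2 S1_a_at (origin in 8-16-cell embryos). The members had 0 at that level over both origins and for the difference between origin effects. Over all probe sets the counts at that level were 3305, 2675, 884 and 2166 for the comparisons between 2 groups in the same order. As shares these were 13.8%, 11.1%, 3.68% and 9.02%, against 5.88% of the members (1 of 17) in each. The counts were 4013 (16.7%) over both origins and 1307 (5.44%) for the difference between origin effects, against 0 of 17.

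The members whose groups did not overlap were counted in the same way. Blastocysts and 8-16-cell embryos of prepubertal origin did not overlap for 1 of 17 members, an IGF2 probe set that was lower in blastocysts and below background throughout, against 16.6% of all probe sets. In the adult origin they did not overlap for 3 of 17, the higher ones being IGF2R S2_at and IGFBP3 S1_at and the lower one IGFBP3 S2_at, against 17.2%. Prepubertal and adult blastocysts did not overlap for 3 of 17, against 9.82%, with IGF1 S1_at and IGFBP3 S2_at higher and IGFBP3 S1_at lower. Prepubertal and adult 8-16-cell embryos did not overlap for 2 of 17, both IGF2 probe sets and both higher, against 12.7%. Over both origins, 6 arrays against 6, no member separated the stages on the signal scale (0 of 17), against 3.44%.

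The median difference of the members followed that of the whole array. It was -0.53 against -0.37 for blastocyst minus 8-16-cell in the prepubertal origin, 0.36 against 0.08 in the adult origin, 0.35 against 0.16 for prepubertal minus adult in blastocysts and 1.09 against 0.59 in 8-16-cell embryos. The shifts of the whole array depended on the scaling: for prepubertal minus adult 8-16-cell embryos the median of all probe sets was 0.05 after quantile normalization and -1.09 when signals were divided by background.

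**Figure D4:**
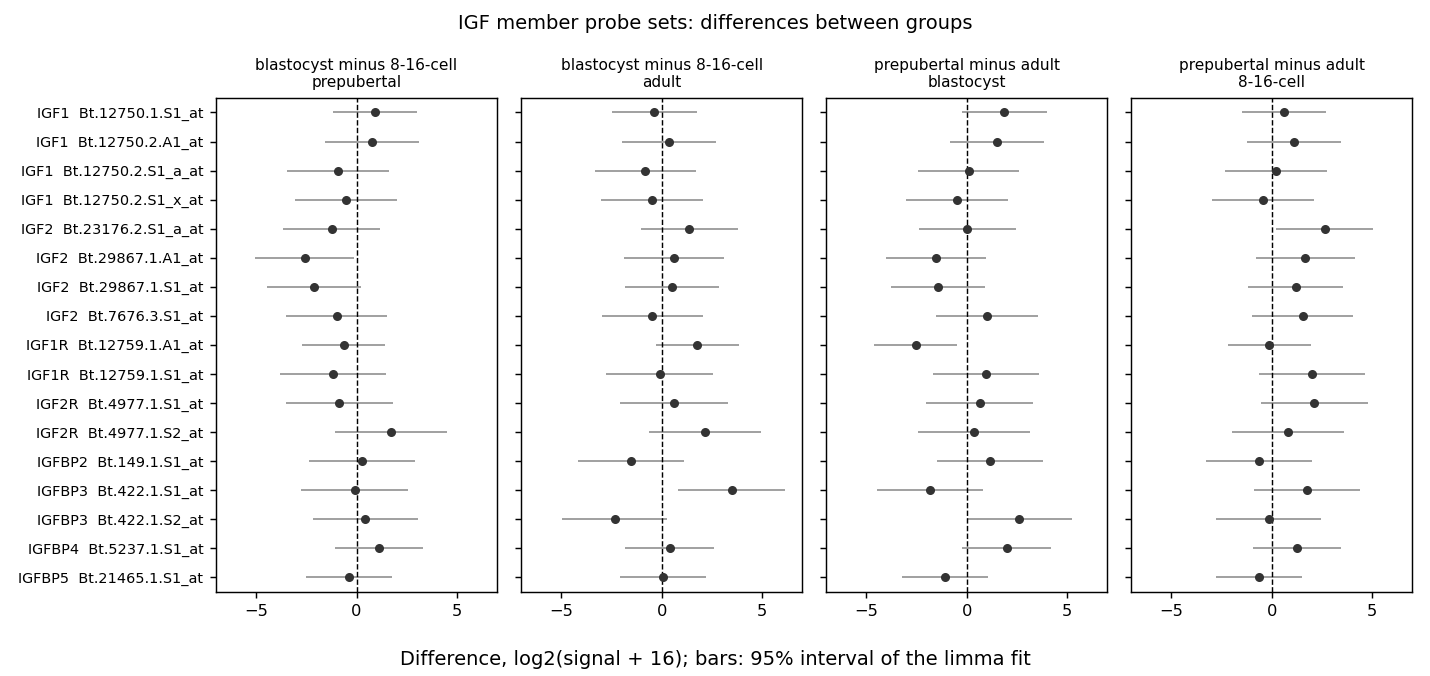
Differences of the 17 IGF probe sets on the log2(signal + 16) scale (points) with the 95% interval of the limma fit (bars) in the 4 comparisons between 2 groups. Intervals are several log2 units wide; 1 per panel excludes 0, and none passed the adjustment over all probe sets.

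The wider pathway was taken from a list of 69 genes in 6 classes, of which 44 were measured by 66 probe sets. Calls were made only over both origins, where 2 of the 66 probe sets were higher and 1 was lower in blastocysts, against 3.9% higher and 2.51% lower of all probe sets. None was called in the other 5 comparisons. Several central genes, among them IRS1, IRS2, MTOR and FOXO1, were not named by the annotation and not analysed here.

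IGF2BP1, an RNA-binding protein named for its binding to IGF2 mRNA, was higher in blastocysts. It had signals of 4470, 26282 and 3563 in prepubertal blastocysts and 2778, 4386 and 15447 in adult blastocysts, all above background. It had 10884, 507 and 320 in prepubertal 8-16-cell embryos and 238, 2872 and 142 in adult 8-16-cell embryos, with the 320 and the 142 below background. The stages overlapped, since 1 pool of prepubertal 8-16-cell embryos read 10884. Over both origins the difference was 3.08 (SE 0.94, limma adjusted p = 0.0240), and the call was lost when any of 5 single arrays was left out, the adjusted p then lying between 0.0521 and 0.133. The related IGF2BP3 was bright at both stages without a call. Its probe set A1_at read 162 to 2554 in blastocysts and 856 to 5852 in 8-16-cell embryos, above background on 11 of 12 arrays, and its other probe set was above it on 7.

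RPS6, the ribosomal protein that S6 kinase phosphorylates downstream of mTOR, was above background on all 12 arrays. It had 39217, 30418 and 50103 in prepubertal blastocysts and 17032, 31688 and 45068 in adult blastocysts. It had 9328, 5790 and 4590 in prepubertal 8-16-cell embryos and 13660, 34585 and 3115 in adult 8-16-cell embryos. In the prepubertal origin the stages did not overlap, and in the adult origin 1 8-16-cell pool reached the blastocyst values. Over both origins the difference was 1.99 (SE 0.60, limma adjusted p = 0.0220). It was not called when any of 5 single arrays was left out or when the prior variance had no trend, the adjusted p then lying between 0.0631 and 0.169.

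INS, the gene of insulin and the neighbour of IGF2 in the gene order, was called lower in blastocysts, with a difference of -2.25 (SE 0.74, limma adjusted p = 0.0428), but was below background on all 12 arrays. Its signals were 3.53 to 19.7 in blastocysts and 15.2 to 595 in 8-16-cell embryos, and its highest reading was 0.595 times the background. The call was lost under 15 of 20 alternatives. The insulin receptor gene INSR had no call, and no probe set of either gene was above background on more than 2 arrays.

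The other binding proteins and their proteases had no call in 9 probe sets of 7 genes, and none was above background on all 3 arrays of a group. The brightest by mean were PAPPA, the protease that cleaves IGFBP4, and IGFBP7, a related secreted protein. PAPPA S1_at had 112, 301 and 429 in prepubertal blastocysts and 231, 94.0 and 34.2 in adult blastocysts, with the 301, the 429 and the 231 above background. In 8-16-cell embryos its signals of 80.8 to 363 were all below it. IGFBP7 was above background on 3 of 12 arrays, at 754, 345 and 394, on 1 pool each of prepubertal blastocysts, adult blastocysts and adult 8-16-cell embryos.

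Among the receptor adaptors (9 probe sets, 6 genes) the brightest without a call were SHC1, an adaptor that links receptors to Ras, and PTPN1, a tyrosine phosphatase. SHC1 S1_a_at was above background on 11 of 12 arrays, with 977 to 3284 in blastocysts and 123 to 7902 in 8-16-cell embryos, and the stages overlapped. The other SHC1 probe sets, both ending in S1_at, were above background on 8 and 6 arrays and did not follow it. On replicate 3 of the prepubertal 8-16-cell embryos 1 of them read 94072, 56.5 times the background, where S1_a_at read 123, below background. PTPN1 was above background on 6 of 12 arrays. Of the Ras-MAPK genes (13 probe sets, 9 genes), the kinase MAP2K1 was above background on 11 arrays, with 482 to 3995 in blastocysts and 38.2 to 8762 in 8-16-cell embryos. NRAS, a Ras GTPase, was above background on 10 arrays. SHC1, MAP2K1 and NRAS were thus read at both stages, but they were picked as the brightest of their classes. Of the 9 adaptor probe sets, 2 were above background on all 3 arrays in each blastocyst group and 1 in each 8-16-cell group. Of the 13 Ras-MAPK probe sets these counts were 2 in prepubertal and 3 in adult blastocysts. They were 0 in prepubertal and 2 in adult 8-16-cell embryos. Most of these probe sets, like those of IGF1R, were therefore not read throughout a group.

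**Figure D5:**
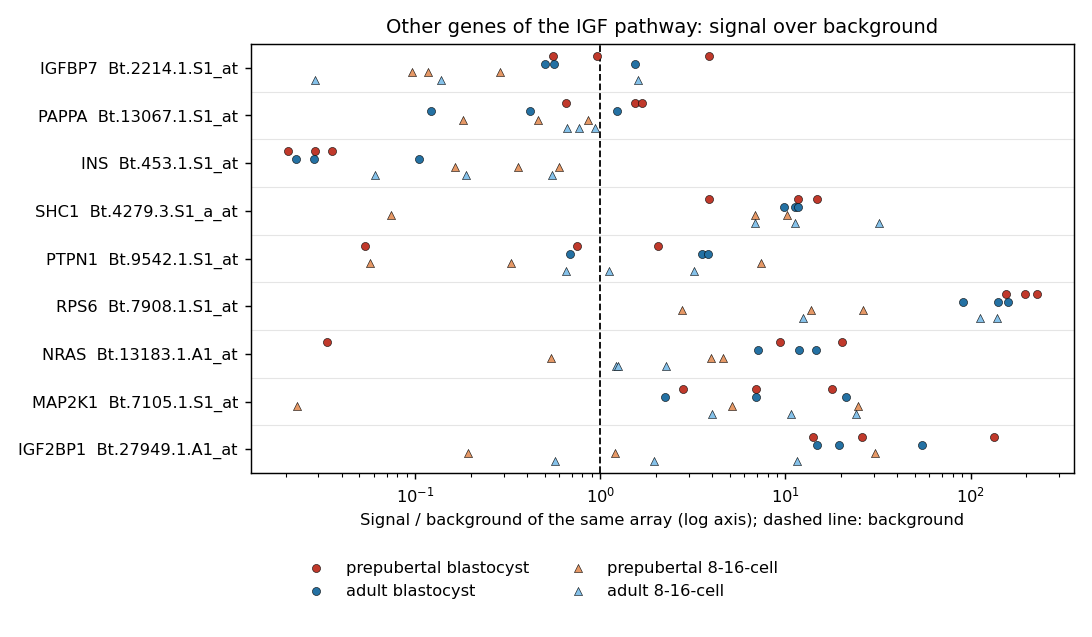
Signal over the background of the same array (horizontal log axis; dashed line at the background) for the called pathway genes and the brightest uncalled genes, 1 point per array. RPS6 is right of the line on all 12 arrays and IGF2BP1 on 10, while INS is left of it on all 12.

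Cumulus and granulosa cells, which surround the oocyte and express IGF genes, were followed by 29 probe sets of 15 genes. Of these, 12 were below background on all arrays, and AMH, CYP11A1, FSHR, INHA, LHCGR and PTX3 had no probe set above it on any. Others were read clearly. STAR was above background on all 3 arrays of each 8-16-cell group, at up to 31.4 times, and on 2 of 3 adult blastocyst arrays, at up to 3.76 times. In each blastocyst group 2 HAS2 probe sets were above it on all 3 arrays, at up to 16.2 times. Of these, 1 was also above it on 2 of 3 adult 8-16-cell arrays. The remaining HAS2 probe set was above it on 1 array only, of adult 8-16-cell embryos. VCAN S1_a_at was above it on 4 arrays, at up to 65.0 times in adult 8-16-cell embryos. Over both origins, STAR was lower in blastocysts (-3.57, limma adjusted p = 0.0168) and 1 of the HAS2 probe sets was higher (3.31, adjusted p = 0.0306). These were 1 lower and 1 higher of 29, against 2.51% lower and 3.9% higher of all probe sets. The summed signal of the list was 4141 to 6961 in prepubertal blastocysts, 4149 to 6510 in adult blastocysts, 6384 to 19713 in prepubertal 8-16-cell embryos and 5321 to 18989 in adult 8-16-cell embryos. Its part in the IGF readings was not tested. No blood or sperm marker was above background on more than 2 arrays.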

How the data were processed

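Pools of embryos were measured on 12 bovine genome arrays, 3 per group of stage and oocyte origin. The deposited signal intensities were made with MAS5, per the submitters' processing notes; the labels name neither its version nor its settings. Values are linear, with a mean of 500.19 to 500.31 per array after trimming 2% at each end. Gene names came from the platform annotation, brought up to date through RefSeq. Of 24016 probe sets, 13292 named 1 gene, 86 several and 10638 none; 112 controls were left out.

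Signals were analysed as log2(signal + 16), which understates differences of dim probe sets. The model held 4 group means over 12 arrays and was estimated in R 4.3.3 by lmFit and by eBayes with a trend on the mean level (limma 3.58.1; 8 residual degrees of freedom, prior 195.66). Calls were made at a two-sided p under 0.05 after Benjamini-Hochberg adjustment over the 24016 probe sets. The scripts were tested on simulated data. The number of arrays limits the precision. Arrays held at most 0.00414% identical values pairwise.

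Every member is named with all its probe sets. Of the other pathway genes, those called are named and, in classes without a call, the 2 brightest by mean; IGF2BP3 and the IGF2 neighbour remarks were added after values were seen. The members and lists were chosen with earlier results of these data known. Alternatives were pseudocounts of 1 and 64, quantile normalization, a floor at background, a filter, no trend, array weights, a replicate block, only the groups compared, each array left out, other backgrounds and, chosen after seeing the data, division by background.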

Additional observations from a re-analysis of the deposited data

How the results depend on the processing

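The count of called IGF probe sets was 0 under 128 of 130 alternative fits. The exceptions came from raising signals to their own array's background. This called 10 of 17 for blastocyst minus 8-16-cell in the prepubertal origin, against 13469 of 24016 on the whole array. It called 15 of 17 for prepubertal minus adult 8-16-cell embryos, against 14616 of 24016. By construction it sets every probe set below background to the background of its array. In prepubertal 8-16-cell embryos 17.9%, 22.2% and 5.23% of probe sets were above backgrounds of 356, 424 and 1664. Over the other comparisons the whole-array counts ranged from 249 to 889 for the stages in the adult origin and from 1174 to 1740 over both origins.

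Of 376 recomputed differences of members above background on 2 arrays of a group, 365 kept their direction, 11 reversed and none became called. With the floor at background, over both origins, IGF1R A1_at turned to -0.558, IGFBP3 S1_at to -0.324 and IGFBP4 to -0.417; IGFBP4 also turned to -1.028 for the stages in the prepubertal origin and to -1.222 for the difference between origin effects. For IGF2R S2_at, prepubertal minus adult turned to -0.1523 in blastocysts without replicate 2 of the prepubertal blastocysts and to -0.8588 in 8-16-cell embryos when divided by background. Its difference between origin effects turned to 1.371 when divided by background, to 0.04621 without replicate 3 of the prepubertal blastocysts and to 0.1589 without replicate 3 of the prepubertal 8-16-cell embryos. That of IGFBP4 turned to -0.03554 without replicate 3 of the prepubertal blastocysts. The cause was not tested. With each array left out in turn, these ran from -0.1523 to 0.8711 and from -1.307 to 0.1589 for IGF2R (origin in blastocysts, and the difference between origin effects) and from -0.03554 to 2.101 for IGFBP4. The stage difference of IGF2R over both origins stayed between 1.488 and 2.641, with limma adjusted p between 0.146 and 0.503.

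The readings above background depended on the background. With the 90th percentile of the controls they were 18 in prepubertal blastocysts, 17 in adult blastocysts, 11 in prepubertal 8-16-cell embryos and 12 in adult 8-16-cell embryos. With the highest background of the 12 arrays for all they were 2, 2, 0 and 0 in the same order, and with the second highest control they were 6 in prepubertal 8-16-cell embryos.

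Same-numbered arrays did not deviate together (correlations of -0.014 to 0.049), so the numbers were not used as pairs. With the replicate block the members called stayed at 0 in all 6 comparisons, and the IGF2R difference over both origins was 1.93.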
